A study of Mus musculus with 4 samples.

Results

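Cytokine-expressing microglia are described here: microglia that carried messenger RNA of the inflammatory cytokines Tnf, Il1a and Il1b in brains of young and old mice, with or without a glioma on the other side. They were chosen by measured values, 1 cell at a time: a cell needed at least 3 UMIs (unique molecular identifiers, 1 per captured RNA molecule) summed over the microglia genes P2ry12, Tmem119, Siglech and Gpr34, and at least 3 summed over Tnf, Il1a and Il1b. Cells with over 3 UMIs of Cst7, Lpl, Spp1, Gpnmb and Itgax (disease-associated microglia), over 3 of S100a8 and S100a9 (neutrophils), over 2 of Mog and Mag (oligodendrocytes), over 2 of Slc1a2 and Aqp4 (astrocytes) or over 1 of Cldn5 (endothelium) were left out. This gave 2339 members among 13665 microglia and 44503 cells.

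Single-cell RNA was counted in brain tissue of mice with C57BL strain labels, whose last digit differs between the samples, from the hemisphere opposite to an injection made 2 weeks earlier. The 4 groups, of 1 library each, were old tumour (93 weeks of age, 1000 CT2A-GFP-luc cells of a murine glioma that carry a fluorescent and a luminescent reporter), old sham (93 weeks, PBS), young tumour (8 weeks, the same glioma cells) and young sham (8 weeks, PBS). The number of mice behind a library is not given in the sources used here. With 1 library per group no difference was tested, and all intervals are exact 95% intervals that cover counting error only, not the variation between animals, dissociations or libraries. The intervals of gene ratios took each UMI as an independent count, so they also leave out the variation between cells and are too narrow where few cells hold most UMIs.

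Microglia are the resident macrophages of the brain. Tnf and Il1b encode secreted cytokines, and Il1a encodes a cytokine that also acts as an alarm signal when cells are damaged; microglia are a main source of all of them in the brain. Their transcription is driven by NF-kB, which waits in the cytoplasm bound to inhibitors such as the product of Nfkbia, and by AP-1, the dimer of Fos and Jun proteins. NF-kB also switches on its own inhibitors, so Nfkbia and Tnfaip3 messenger RNA rises with the cytokines. Immediate early genes such as Fos, Jun and Egr1 respond within minutes to stimuli, and enzymatic dissociation of brain tissue is itself known to raise them, together with cytokines, in microglia.

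The bases just before the start sites are shown for the cytokine genes that define the cells and for Nfkbia and Cxcl10, genes that went with them in every library (GRCm38.p6, RefSeq start sites). The genes lie at chr17:35199381-35202007 (Tnf), chr2:129299610-129309972 (Il1a), chr2:129364570-129371139 (Il1b), chr12:55489410-55492647 (Nfkbia) and chr5:92346638-92348889 (Cxcl10), all on the minus strand and all protein-coding. Each line gives the 170 bases that end just before the start site, 5′ to 3′ on the strand of the gene, and the windows are chr17:35202008-35202177, chr2:129309973-129310142, chr2:129371140-129371309, chr12:55492648-55492817 and chr5:92348890-92349059 in the same order. Capitals mark matches to TATAAA on the strand of the gene, and on either strand to TGANTCA (the AP-1 motif) and to the NF-kB consensus.
Tnf: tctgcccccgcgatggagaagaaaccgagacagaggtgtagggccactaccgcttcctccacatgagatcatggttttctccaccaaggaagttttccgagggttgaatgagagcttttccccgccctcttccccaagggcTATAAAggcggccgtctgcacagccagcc
Il1a: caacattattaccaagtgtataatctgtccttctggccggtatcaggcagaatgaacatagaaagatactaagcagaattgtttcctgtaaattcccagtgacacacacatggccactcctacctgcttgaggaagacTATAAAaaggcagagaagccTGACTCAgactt
Il1b: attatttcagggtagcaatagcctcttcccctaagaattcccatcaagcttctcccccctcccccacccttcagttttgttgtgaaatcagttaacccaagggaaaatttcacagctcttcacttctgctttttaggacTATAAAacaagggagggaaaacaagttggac
Nfkbia: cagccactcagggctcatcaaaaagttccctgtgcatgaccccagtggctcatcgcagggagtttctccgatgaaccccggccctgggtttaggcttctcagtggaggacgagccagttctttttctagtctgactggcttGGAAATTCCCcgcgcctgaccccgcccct
Cxcl10: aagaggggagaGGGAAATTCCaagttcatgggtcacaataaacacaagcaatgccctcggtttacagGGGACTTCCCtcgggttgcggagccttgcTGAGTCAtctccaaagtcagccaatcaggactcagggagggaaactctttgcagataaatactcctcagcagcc

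The cytokine genes each had a TATAAA match, 29 bases before the start site in Tnf, 32 in Il1a and 31 in Il1b, and Il1a also had an AP-1 match that began 12 bases before it. Nfkbia had an NF-kB match that began 29 bases before its start, and Cxcl10 had NF-kB matches at 159 and 103 bases and an AP-1 match at 74. No NF-kB match lay in the cytokine windows, which says only that these letters were not in them. Over all 32851 RefSeq windows, the 170 bases held TATAAA in 5.32%, the AP-1 motif in 4.75% and the NF-kB consensus in 2.68%. In the 250 bases before the start, the NF-kB consensus was in 5 of 12 matched genes (Nfkbia, Nfkbid, Cxcl10, Ier3 and Ccrl2) among the 15 ranked highest in members over other microglia, against 3.9% of all windows. A gene was counted if any of its windows matched, whereas the 3.9% is of single windows, so the units differ. The 15 genes were ranked in cells chosen by their cytokine UMIs, so this is a description.

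The libraries held 10809 cells in old tumour, 10418 in old sham, 11575 in young tumour and 11701 in young sham, with median depths of 3954 to 5008 UMIs. Members were deeper than other microglia: their medians were 5611.5, 5666, 5973 and 4712 UMIs in old tumour, old sham, young tumour and young sham, against 4443.5, 4167, 3162.5 and 3579 UMIs in microglia that met the same limits with 2 or fewer cytokine UMIs ("other microglia"). Of 2339 members, 26 had a barcode that occurred in more than 1 library. A doublet score marked 2.12% and 2.18% of members in old tumour and old sham, and 6.29% and 5.57% in young tumour and young sham.

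Young tumour members stood apart. Cells with at least 10 UMIs of the MHC class II genes H2-Aa, H2-Ab1, H2-Eb1 and Cd74, called class II-high below, were 6.60% of members in old tumour, 1.82% in old sham, 51.0% in young tumour (73 of 143, interval 42.6 to 59.5%) and 3.29% in young sham. Of other microglia, 2.66%, 1.67%, 7.67% and 0.816% were class II-high in the same order, so young tumour was highest there too. The 73 class II-high young tumour members had a median of 8732 UMIs and 467 CPM of P2ry12 (UMIs summed over the cells and scaled to their total). They had 40148 CPM of Apoe and 1182 CPM of Ms4a7, a gene of border-associated macrophages. Mrc1 and Pf4, other genes of border-associated macrophages, had 64.1 and 54.7 CPM in them. In class II-high old tumour members Mrc1 and Pf4 had 601 and 1278 CPM. The 70 class II-low young tumour members had a median of 4219 UMIs, 1576 CPM of P2ry12, 11130 CPM of Apoe and 201 CPM of Ms4a7. Results that involve this library are therefore given with and without class II-high cells, a limit set after the values were seen.

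Microglia markers were lower in young tumour members than in members of the other libraries. The rule required UMIs of P2ry12, Tmem119, Siglech and Gpr34 and limited S100a8 and S100a9, so these genes cannot test the microglia label. P2ry12, a purine receptor of resting microglia, had 1688 CPM in old tumour members, 1664 in old sham, 859 in young tumour and 2092 in young sham. Summed over 7 microglia markers, rule genes included, members had 13785, 13651, 8081 and 15091 CPM in old tumour, old sham, young tumour and young sham. The young tumour value was 13151 CPM without class II-high cells. In other microglia the same sum was higher in each library, at 15583, 15923, 16537 and 18247 CPM. Cx3cr1, a microglia gene outside the rule, had 2499, 2757, 1482 and 2709 CPM in members. Summed monocyte markers had 22.0, 17.5, 355 and 151 CPM, and summed border-associated macrophage markers had 424, 186, 970 and 192 CPM, in the same order. Dendritic cell markers reached 103 CPM in young tumour members, against 8.37 to 13.2 CPM in the other libraries. This rested on few cells. Ccr7 had 53.6 CPM in 0.699% of young tumour members and Cd209a 27.3 CPM in 1.40%. Only 4 young tumour members had at least 5 UMIs of dendritic cell markers. Of 8 neutrophil markers, 6 were at 0 in young tumour members, S100a8 and S100a9 among them. Natural killer cell markers were at 0 to 0.492 CPM in members, and T cell markers at 0 to 4.05 CPM. At least 5 UMIs of border-associated macrophage markers were found in 5.42%, 2.47%, 28.0% and 4.05% of members in old tumour, old sham, young tumour and young sham. Of these markers, Cbr2, Cd163 and F13a1 were lowest in young tumour members, at 3.03, 6.07 and 14.2 CPM, so the list did not rise as a whole there. The largest sum of another cell type was that of choroid plexus epithelium markers. It was 3464 CPM in old tumour members, 2651 in old sham, 612 in young tumour and 5948 in young sham. Other microglia had 14897, 12554, 6268 and 9884 CPM of them. At least 5 of these UMIs were found in 36.6%, 16.7%, 25.9% and 14.4% of members, in the same order. The part of these other cell types in the results below was not tested.

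Members made up 14.8% of microglia in old tumour (424 of 2856, interval 13.6 to 16.2%), 48.4% in old sham (1377 of 2846, 46.5 to 50.2%), 4.02% in young tumour (143 of 3557, 3.4 to 4.72%) and 8.97% in young sham (395 of 4406, 8.14 to 9.85%). Old sham had the highest share and young tumour the lowest. With no lower limit on UMIs, at least 1 Il1a UMI was found in 36.6% of all microglia in old tumour, 65.2% in old sham, 18% in young tumour and 28.8% in young sham. The tumour libraries had the lower share at both ages, with a ratio of 0.307 for old tumour over old sham (0.275 to 0.342) and 0.448 for young tumour over young sham (0.368 to 0.544). The old libraries had the higher share under both injections, with a ratio of 5.40 for old sham over young sham (4.82 to 6.05) and 3.69 for old tumour over young tumour (3.05 to 4.5). Without class II-high cells, the share in young tumour was 2.25%, the young tumour over young sham ratio 0.256 and the old tumour over young tumour ratio 6.47. Among microglia that met all the exclusions, the shares were 17.8% in old tumour, 56.1% in old sham, 4.75% in young tumour and 10.3% in young sham.

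**Figure D1:**
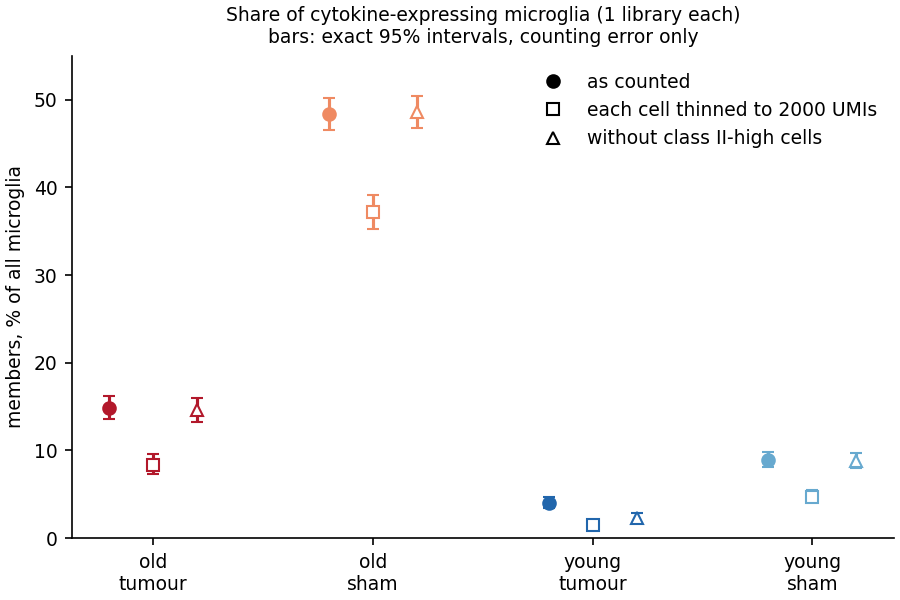
Share of members among all microglia (y axis, percent) in the 4 libraries (x axis), as counted (filled circles), after thinning each cell to 2000 UMIs (open squares) and without class II-high cells (open triangles), with exact 95% intervals of counting error. Old sham stands at 48.4%, 37.1% and 48.6% and every other point lies below 17%.

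The order of the libraries was the same at equal depth. With each cell thinned to 2000 UMIs, which left out 146 to 355 shallower microglia per library, members were 8.4% of microglia in old tumour, 37.1% in old sham, 1.46% in young tumour and 4.74% in young sham. Cytokine UMIs were rare in cells of other types without any microglia UMI. That choice leaves out cells with visible microglial carry-over, so the rates do not give the background of members. Cells with no microglia UMI but oligodendrocyte, astrocyte or endothelial UMIs had 3 or more cytokine UMIs in 0% to 0.195% in old tumour, 0.101% to 0.218% in old sham, 0.26% to 0.563% in young tumour and 0.115% to 0.165% in young sham. These cells had median depths of 3457 to 6641 UMIs. At least 1 cytokine UMI was found in 3.98% to 4.65% of such cells in old sham, against 1.15% to 2.1% in the other 3 libraries.

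The limit of 3 cytokine UMIs passed through a continuum. Cells with exactly 3 were 3.74%, 5.94%, 1.36% and 2.88% of the microglia that met the exclusions in old tumour, old sham, young tumour and young sham, and cells with exactly 2, just outside, were 6.97%, 7.29%, 3.45% and 6.82%. Members carried a median of 6 cytokine UMIs in old tumour, 11 in old sham, 5 in young tumour and 5 in young sham. Those with 21 or more were 10.4% of members in old tumour, 22.7% in old sham, 2.8% in young tumour and 4.81% in young sham. The highest cell had 105, in old sham. These counts are a description, since the rule chose the cells by them and the member depths differ.

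Because the cells were selected on them, the cytokine levels of members are a description. Tnf had 495 CPM in old tumour members, 804 in old sham, 174 in young tumour and 267 in young sham. Il1a had 723, 1149, 299 and 719 CPM in the same order, and was the most abundant of the set in all libraries but young tumour. Il1b had 489, 577, 590 and 486 CPM and was the leading cytokine of young tumour members. With all members counted, Il1b thus differed least between libraries, while Tnf was higher in old than in young members under both injections. Once class II-high cells were left out, young tumour members had 212 CPM of Tnf, 573 of Il1a and 284 of Il1b, so Il1a led there too. The class II-high young tumour members had 153 CPM of Tnf, 150 of Il1a and 757 of Il1b.

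Cells with all 3 cytokine messages were 13.7% of members in old tumour, 27.7% in old sham, 5.59% in young tumour and 7.59% in young sham. The most frequent combination was Tnf with Il1a in old tumour (33.5%) and old sham (42.8%), Il1b alone in young tumour (25.2%) and Il1a alone in young sham (38.5%). Tnf was detected in 55.4%, 76.7%, 39.9% and 41% of members, Il1a in 85.4%, 92.2%, 60.1% and 89.1%, and Il1b in 35.6%, 39.2%, 50.3% and 30.4%, in old tumour, old sham, young tumour and young sham. After thinning to 2000 UMIs, Tnf was detected in 57.8% of members in old tumour, 66.8% in old sham, 42.9% in young tumour and 36.4% in young sham.

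**Figure D2:**
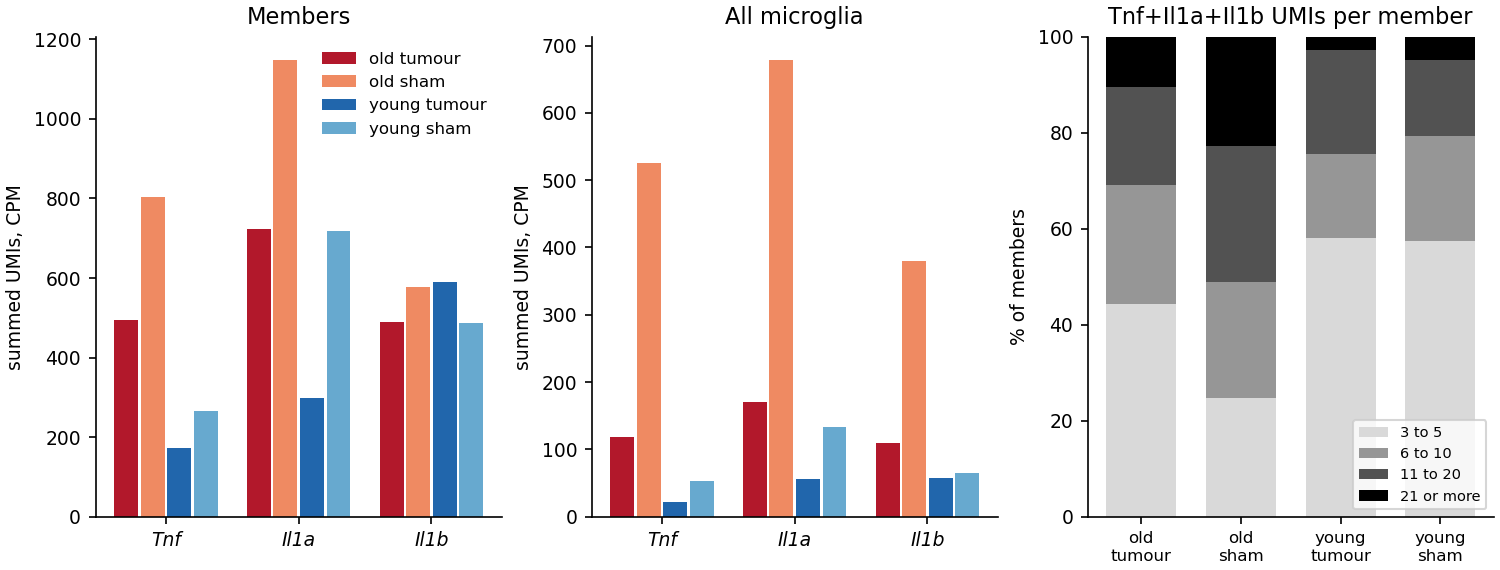
Left and middle, summed UMIs of Tnf, Il1a and Il1b in members and in all microglia (y axis, CPM) by library; right, share of members (y axis, percent) by their number of cytokine UMIs. Il1b lies between 486 and 590 CPM in members of the 4 libraries, and members with 21 or more cytokine UMIs are 22.7% of old sham members.

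Over all microglia, with no selection on the cytokines, Tnf had 119 CPM in old tumour, 526 in old sham, 21.4 in young tumour and 52.5 in young sham. Il1a had 170, 679, 56.0 and 133 CPM, and Il1b had 110, 380, 56.9 and 65.3 CPM. Members held 61.1% of the microglial Tnf UMIs in old tumour, 74.1% in old sham, 45.7% in young tumour and 50.1% in young sham. For Il1a the share held by members was 62.2%, 82.1%, 30.1% and 53.1%, so that in young tumour most Il1a UMIs were spread over cells with 1 or 2 cytokine UMIs. Cells that had 3 or more cytokine UMIs but went over 1 of the exclusion limits numbered 110, 229, 68 and 74 and held 8.76% to 33.2% of the UMIs of a cytokine.

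Members were next set beside other microglia of the same library, as a description, since the choice of cells can carry other genes with it. Of 2938 genes with a mean of at least 50 CPM, 38 (1.29%) were at least 1.5-fold higher in members in each of the 4 libraries, Tnf, Il1a and Il1b included, and 8 (0.272%) at least 1.5-fold lower. Of the 38, 37 had UMIs in members of every library; Cxcl9 was counted only through the 3 counts put in place of 0 UMIs in old tumour members. In old tumour, old sham, young tumour and young sham alone, 3.51%, 2.42%, 5.72% and 2.93% of the 2938 genes were higher and 1.53%, 1.4%, 24.6% and 0.919% lower. Nfkbia, the NF-kB inhibitor, had 1562 CPM in old tumour members, 3545 in old sham, 701 in young tumour and 1638 in young sham, against 319, 1044, 299 and 442 CPM in other microglia. Nfkbiz, a nuclear NF-kB cofactor, had 373, 855, 175 and 366 CPM in members and 68.6, 237, 46.2 and 89.4 CPM in other microglia. Tnfaip3, which encodes the ubiquitin-editing brake A20, was 4.1, 3.2, 2.15 and 2.78 times as high in members as in other microglia of old tumour, old sham, young tumour and young sham. Members were thus higher than other microglia for each of these genes in each library.

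Of 9 tested genes of NF-kB subunits, kinases and inhibitors, 4 were past 1.5-fold in members in each library (Nfkbia, Nfkbid, Nfkbiz and Tnfaip3), all of them inhibitors or cofactors; the subunits Nfkb1 and Rela were at 0.662 to 1.01 and 0.600 to 1.16 times the level of other microglia. Of 8 tested NF-kB target genes, 7 were past it in each library, beside 1.29% of all tested genes. Gadd45b, a stress-response gene, was 11.2, 6.09, 10.9 and 7.52 times as high in members of old tumour, old sham, young tumour and young sham, and Cd83, a surface protein of activated myeloid cells, 4.71, 3.20, 2.06 and 3.29 times. Bcl2a1a and Bcl2a1b, survival genes of the BCL2 family, were 1.78 to 3.44 times as high, but they are near-identical copies whose reads can be split between them. Sod2, a mitochondrial superoxide dismutase, was the exception at 0.769 to 1.23 times.

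Of 10 tested chemokines, 5 were past 1.5-fold in members in each library, beside 1.29% of all tested genes: Ccl2, Ccl3, Ccl4, Ccl12 and Cxcl10. Ccl4, an attractant of T cells and monocytes, had 3318 CPM in old tumour members, 4339 in old sham, 1383 in young tumour and 2873 in young sham, against 569, 1569, 353 and 681 CPM in other microglia. Cxcl10, a T cell attractant that interferon and NF-kB induce, had 281, 150, 283 and 131 CPM in members and 8.92, 22.9, 25.3 and 6.58 CPM in other microglia. The Cxcl10 UMIs came from few cells: 9.43% of old tumour members, 14.1% of old sham, 23.8% of young tumour and 7.85% of young sham members had 1, and the 5 highest cells held 68.9%, 16.5%, 66.8% and 71.4% of the UMIs. Ccl4 was detected in 57.8%, 75.9%, 42% and 54.7% of members, so it was the broader companion of the cytokines. Cxcl9, ranked among the 15 highest only through those 3 counts, had no UMI in old tumour members and 6.58, 384 and 5.42 CPM in old sham, young tumour and young sham members.

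Among 13 tested immediate early genes, Fos, Egr1, Atf3, Ier2 and Nr4a1 were past 1.5-fold in members in each library, and 12, 7, 6 and 11 of the 13 were in old tumour, old sham, young tumour and young sham alone, beside 3.51%, 2.42%, 5.72% and 2.93% of all tested genes. Zfp36, whose product speeds the decay of Tnf messenger RNA, had 3589, 3075, 1804 and 3738 CPM in members and was 2.95, 1.78, 1.53 and 2.17 times as high as in other microglia; Socs3, a brake on cytokine receptors, was 4.53, 2.06, 2.58 and 2.79 times as high. Also among the 15 highest were Ier3, Ccrl2, Cdkn1a, Marcksl1 and Ppp1r15a, with ratios from 2.21 to 4.56. Csf1, a growth factor of microglia whose level lay under the limit of 50 CPM here, was 3.34, 4.22, 2.69 and 2.72 times as high. No gene of 4 tested for TNF shedding, receptors and proximal signalling was past 1.5-fold in any library; Tnfrsf1a, the main TNF receptor, was at 0.866 to 0.91 times. Adam17, the protease that sheds TNF, was at 0.736 to 1.02 times.

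Homeostatic microglia genes outside the rule stayed within 1.5-fold of other microglia in 3 libraries: 0 of 18 were past it in old tumour, old sham or young sham, with median log2 ratios of -0.15, -0.21 and -0.23 beside -0.10 in each over all tested genes. In young tumour 15 of 18 were at least 1.5-fold lower, with a median log2 ratio of -0.99, beside 24.6% and -0.26 over all tested genes. Among the 10 genes ranked lowest in members, Ttr, Enpp2 and Ecrg4 are genes of choroid plexus epithelium. Ttr had 3432, 2625, 610 and 5882 CPM in members and 14760, 12462, 6189 and 9777 CPM in other microglia, and the 5 highest cells held 77.6%, 69.5%, 30% and 90.8% of the member UMIs.

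**Figure D3:**
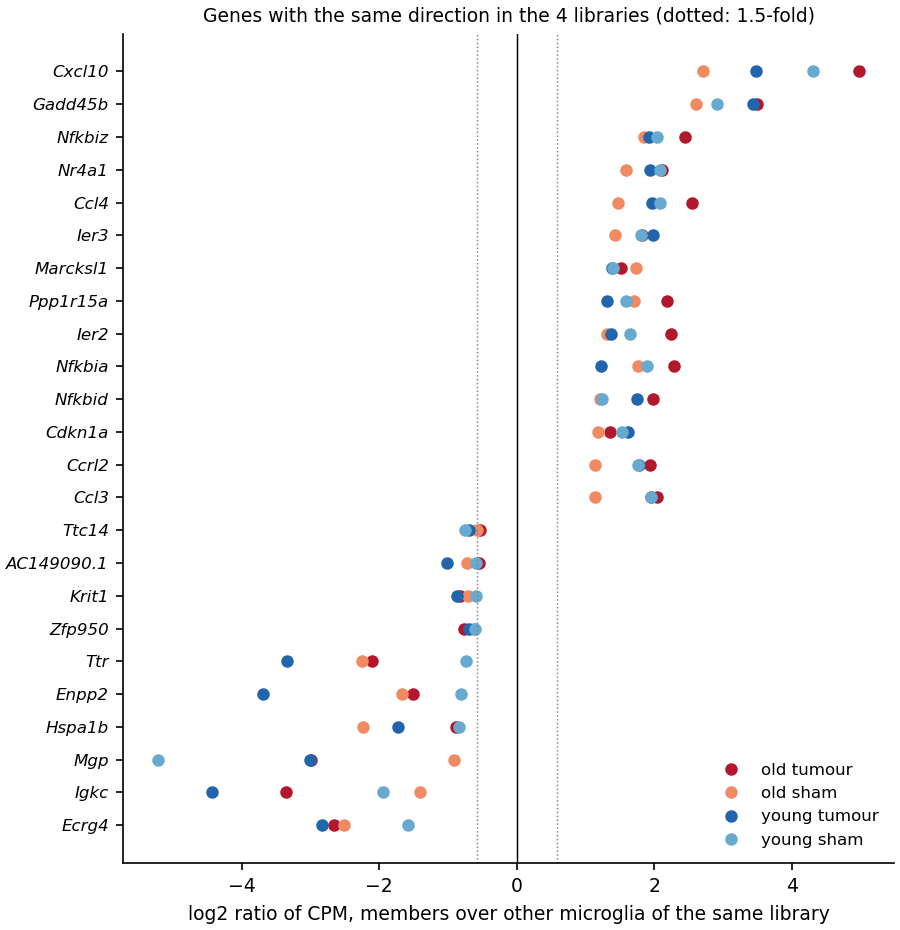
Log2 ratio of CPM in members over other microglia of the same library (x axis) for the genes ranked highest and lowest by their weakest library (y axis), 1 point per library, with dotted lines at 1.5-fold. Cxcl10 and Gadd45b lie furthest to the right, and Cxcl9, with no UMI in old tumour members, is left out.

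The immediate early level was set beside the share of members. The summed level of 19 immediate early transcription factors in all microglia was 11580 CPM in old tumour, 24622 in old sham, 7657 in young tumour and 17116 in young sham. It was also highest in old sham in other cell types: endothelial cells had 5510, 14767, 4937 and 4816 CPM and oligodendrocytes 2068, 3774, 1430 and 1830 CPM, in the same order. Summed heat shock genes in all microglia were at 3664, 4782, 4886 and 5161 CPM. The sham libraries thus had the higher immediate early level in microglia at both ages, and in old sham the level was higher in endothelial cells and oligodendrocytes too. Young sham had a higher level than old tumour and a lower share of members. What part this level has in the share was not tested.

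Within bins of this level, old sham stayed above young sham throughout. Among microglia with 30000 CPM or more, members were 48.9% in old tumour (184 of 376), 72.3% in old sham (797 of 1103), 8.09% in young tumour (19 of 235) and 21.3% in young sham (234 of 1100). The old sham over young sham ratio was 9.67, 5.35, 3.93 and 3.4 in the bins of under 10000, 10000 to 20000, 20000 to 30000 and over 30000 CPM. The old tumour over old sham ratio was 0.325 (0.206 to 0.511), 0.478, 0.58 and 0.677 in the same bins, beside 0.318 over all bins. The young tumour over young sham ratio was 3.62 in the lowest bin (2.04 to 6.85) and 0.64, 0.468 and 0.38 in the others, and without class II-high cells it was 0.836 in the lowest bin (0.366 to 1.88) and 0.475, 0.354 and 0.342 in the others. The old tumour over young tumour ratio was 0.869, 4, 4.88 and 6.05, and 3.8 in the lowest bin without class II-high cells. Depth was not equal within the bins. At 20000 to 30000 CPM the median was 4878.5 UMIs in old tumour, 5749 in old sham, 3319 in young tumour and 4069 in young sham. At 30000 CPM or more it was 4540, 4948, 3059 and 3803.5 UMIs in the same order. Deeper cells reach 3 cytokine UMIs more easily. The parts of depth and of dissociation in these shares were not tested.

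**Figure D4:**
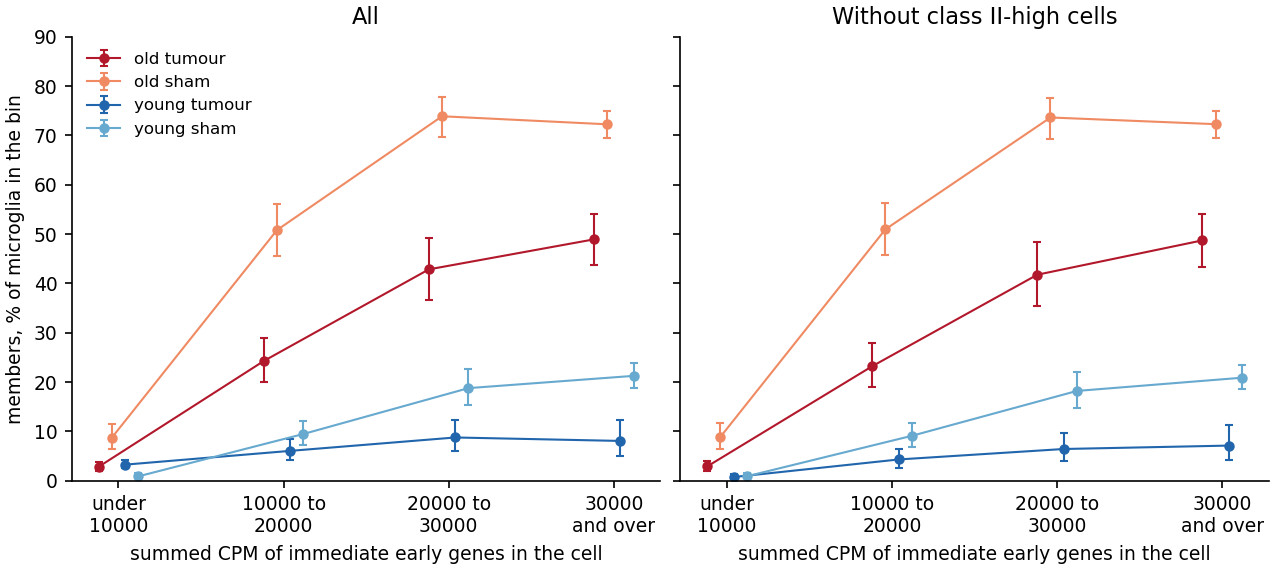
Share of members among microglia that met the exclusions (y axis, percent) in 4 bins of the summed immediate early level of a cell (x axis, CPM), by library, with all cells (left) and without class II-high cells (right), and exact 95% intervals. Old sham lies above young sham in every bin, and in the top bin old tumour stands at 48.9% between old sham at 72.3% and young sham at 21.3%.

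Between libraries, 2788 genes with a mean of at least 50 CPM in members were compared, and 2815 without class II-high cells. In old sham over young sham, 127 genes (4.56%) were at least 1.5-fold higher and 53 (1.9%) at least 1.5-fold lower, and 4.62% and 1.71% without class II-high cells. In old tumour over young tumour, 461 genes (16.5%) were higher and 188 (6.74%) lower, and 5.12% and 3.23% without class II-high cells. The median of all genes lay at a log2 ratio of 0.14 in that comparison, and once ratios were centred on it 291 genes were higher and 301 lower.

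In members of old mice the genes of NF-kB feedback were higher than in members of young mice under both injections. The members also differed in cytokine UMIs, by which they were chosen. Their median was 11 in old sham and 5 in young sham, and 6 in old tumour and 5 in young tumour. Members with 21 or more were 22.7% in old sham and 4.81% in young sham. The part of that difference in the age ratios here and below was not tested. Of 9 tested genes of NF-kB subunits, kinases and inhibitors, 5 were higher and 0 lower in old sham over young sham (Nfkbia, Nfkbid, Nfkbiz, Tnfaip3 and Rel), with a median log2 ratio of 0.87 beside 0.02 over all genes. In the same comparison 4.56% of all tested genes were higher and 1.9% lower. Nfkbia was 2.16-fold higher (2.09 to 2.24) in old sham over young sham and 2.23-fold (2.05 to 2.42) in old tumour over young tumour. Nfkbiz was 2.34-fold (2.16 to 2.52) and 2.13-fold (1.81 to 2.52) higher, and Tnfaip3, with 210, 447, 102 and 221 CPM in old tumour, old sham, young tumour and young sham, was 2.03-fold and 2.06-fold higher. Without class II-high cells, the old tumour over young tumour ratios were 1.44 for Nfkbia, 2.28 for Nfkbiz and 1.27 for Tnfaip3, so only 2 of the 9 genes, Nfkbid and Nfkbiz, were then past 1.5-fold in that comparison. Rel, an NF-kB subunit, was 1.83-fold higher in old sham over young sham and 1.15-fold in old tumour over young tumour.

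Other genes ranked highest by age were Cd83, Csf1, Gpr84, Nr4a1, Ppp1r15a and Upk1b. Gpr84, a receptor for medium-chain fatty acids on activated myeloid cells, had 290 CPM in old tumour members, 495 in old sham, 117 in young tumour and 259 in young sham, 1.91-fold higher in old sham over young sham (1.74 to 2.09). Ppp1r15a, which restarts protein synthesis after stress, had 327, 740, 135 and 337 CPM, 2.2-fold higher by age in the sham and 2.43-fold in the tumour libraries. Upk1b, a uroplakin gene, had 73.7, 96.0, 14.2 and 40.4 CPM. For each of these genes old members were above young members under the same injection with all members counted, and old sham was the highest library. Csf1 had 69.9 CPM in old tumour and 71.7 CPM in young tumour once class II-high cells were left out, so its direction between the tumour libraries turned. At 2000 UMIs per cell the log2 ratio of old tumour over young tumour was -0.12 for Csf1 and -0.0033 for Gpr84. Old tumour and young sham members differed little for Nfkbia, Nfkbiz, Tnfaip3, Cd83 and Ppp1r15a, whose values in both libraries lay within a few percent of each other. In the other microglia Nfkbia followed the same order of old above young under each injection, with 319 CPM in old tumour, 1044 in old sham, 299 in young tumour and 442 in young sham.

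Nlrp3, the sensor of the inflammasome that matures IL-1b, had 62.5, 139, 37.4 and 54.7 CPM in old tumour, old sham, young tumour and young sham members and was 2.54-fold higher (2.09 to 3.11) in old sham over young sham. Of 11 tested chemokines, 4 were higher and 1 lower in old sham over young sham, beside 4.56% and 1.9% of all tested genes. Ccl7, a monocyte attractant, had 113, 48.3, 152 and 4.43 CPM, and 31.5 CPM in young tumour without class II-high cells. The 5 highest cells held 93.3%, 56.6%, 56% and 100% of the Ccl7 UMIs, 9 of them in young sham. Ccl2, of the same function, had 294, 247, 316 and 99.0 CPM. Ccl9 was the lower one, with 130, 78.3, 109 and 170 CPM. Of 18 homeostatic genes 0 were higher and 1 lower in old sham over young sham.

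The genes ranked lowest by age were lower in old members under both injections, but most rested on few cells. Plac8, a monocyte gene, had 8.41, 4.1, 147 and 74.3 CPM in members of old tumour, old sham, young tumour and young sham, and the 5 highest cells held 100%, 69.7%, 93.1% and 100% of its UMIs. Lgals3, a galectin of phagocytes, had 41.6, 11.2, 239 and 45.8 CPM, with 53.3% to 69.9% of UMIs in the 5 highest cells. Rgs1, a brake on chemokine receptors, was broader, with 159, 78.1, 402 and 226 CPM and 11.1% to 26.7% of UMIs in the 5 highest cells, and its ratio was 0.345 (0.305 to 0.39) in old sham over young sham and 0.396 (0.344 to 0.456) in old tumour over young tumour. Tmem176a, a membrane protein of myeloid cells, had 348, 230, 799 and 458 CPM. The MHC class II genes and Cd74 were also among the lowest, and their direction in old sham over young sham turned without class II-high cells for H2-Ab1 (ratio 0.39 with and 1.76 without), H2-Eb1 (0.456 and 2.97) and Cd74 (0.501 and 1.23).

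In old tumour over old sham, 66 genes (2.37%) were at least 1.5-fold higher and 98 (3.52%) at least 1.5-fold lower, and 1.56% and 3.41% without class II-high cells. In young tumour over young sham, 259 (9.29%) were higher and 507 (18.2%) lower, and 5.08% and 6.11% without class II-high cells. All genes had a median log2 ratio of -0.15 in young tumour over young sham, and once ratios were centred on it 407 were higher and 322 lower. With mitochondrial and ribosomal protein genes left out of the total, 367 were higher and 463 lower. Leaving out the 73 class II-high young tumour members lowered the number of genes past 1.5-fold in this comparison to 315, against 766 with them.

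In members of tumour-bearing mice the NF-kB feedback genes were lower than in sham members of the same age. Other microglia had the same direction for Nfkbia, as given above. Their Cd83 level was 132, 404, 104 and 188 CPM in old tumour, old sham, young tumour and young sham. Members also differed in median cytokine UMIs, at 6 in old tumour and 11 in old sham. The part of that difference in the ratios was not tested. Of the 9 tested genes of NF-kB subunits, kinases and inhibitors, 0 were higher and 4 lower in old tumour over old sham, and likewise 0 and 4 in young tumour over young sham. Among all tested genes, 3.52% and 18.2% were lower in these comparisons. Nfkbia was at 0.441 of old sham in old tumour (0.426 to 0.456) and at 0.428 of young sham in young tumour (0.394 to 0.465). Nfkbiz was at 0.436 (0.407 to 0.467) and 0.478 (0.403 to 0.564), and Tnfaip3 at 0.47 (0.428 to 0.516) and 0.463 (0.37 to 0.576). With class II-high cells removed, the old ratios were 0.442, 0.428 and 0.471, while the young ratios were 0.665 for Nfkbia, 0.456 for Nfkbiz and 0.758 for Tnfaip3. The same direction was seen for Cd83 (0.481 and 0.348), Ppp1r15a (0.442 and 0.4), Nr4a1 (0.465 and 0.523) and Zfand5 (0.505 and 0.383), the first ratio for the old and the second for the young mice.

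Klf4, a transcription factor of the immediate early list, had 39.2 CPM in old tumour members, 134 in old sham, 18.2 in young tumour and 113 in young sham, a ratio of 0.292 (0.235 to 0.36) in the old and 0.161 (0.0936 to 0.26) in the young mice. Ifrd1, a regulator of transcription, had 59.7, 232, 33.4 and 72.9 CPM. Fosb had 318, 599, 136 and 590 CPM. For these genes both tumour libraries lay below both sham libraries. Dusp2, a phosphatase that dampens MAP kinases, had 27.6, 154, 34.4 and 50.2 CPM and was at 0.18 (0.139 to 0.229) in old tumour over old sham. Of 14 tested immediate early genes, 1 was higher and 5 lower in old tumour over old sham, and 1 higher and 13 lower in young tumour over young sham, or 9 lower without class II-high cells. The shares of all tested genes that were lower were 3.52% and 18.2%, or 6.11% in young tumour over young sham without class II-high cells.

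Interferon response genes went the other way. Of 8 tested interferon response genes, 5 were higher and 0 lower in old tumour over old sham and 8 were higher in young tumour over young sham. Without class II-high cells, 2 and 5 of 6 were higher. Of all tested genes, 2.37% and 9.29% were higher in these comparisons, and 1.56% and 5.08% without class II-high cells. Ifi27l2a, an interferon-induced gene, had 285 CPM in old tumour members, 91.5 in old sham, 699 in young tumour and 91.1 in young sham, with ratios of 3.12 (2.81 to 3.46) in the old and 7.67 (6.52 to 9.08) in the young mice. Its ratios without class II-high cells were 2.45 and 3.73. Ifitm3, which blocks viral entry, had 277, 108, 943 and 115 CPM, with ratios of 2.57 (2.32 to 2.85) and 8.18 (7.08 to 9.49), and 2.19 and 3.4 without class II-high cells. The members of both tumour libraries were above those of both sham libraries for these genes, with and without the class II-high cells. Of 11 tested MHC class I genes, 0 changed past 1.5-fold in old tumour over old sham. In young tumour over young sham 9 were higher, beside 9.29% of all tested genes. Without class II-high cells, 6 of 9 were, beside 5.08%. H2-D1, a class I heavy chain, had 1265, 960, 3172 and 706 CPM, and its young tumour over young sham ratio was 4.49 with and 2.81 without class II-high cells.

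MHC class II genes were among those ranked highest by tumour. The class II-high cells were defined by H2-Aa, H2-Ab1, H2-Eb1 and Cd74, so leaving them out lowers these genes by construction. Of 6 tested, 4 were higher in old tumour over old sham and 6 in young tumour over young sham, beside 2.37% and 9.29% of all tested genes. Without those cells 0 and 1 of 3 were, beside 1.56% and 5.08%, and H2-Eb1 turned in the old mice, to a ratio of 0.571. H2-Aa had 491 CPM in old tumour members, 99.7 in old sham, 4380 in young tumour and 234 in young sham. Once class II-high cells were left out, H2-Aa had 4.34, 1.27, 48.7 and 1.54 CPM. Cd74 then had 73.0, 53.4, 221 and 43.6 CPM. Young tumour thus stayed above young sham for both, in H2-Aa on 17 and 3 UMIs. With all members counted, the 5 highest cells held 49%, 50.6%, 18.8% and 64.1% of the H2-Aa UMIs. Lgals1, Lgals3, Ccl8 and Ms4a7 were also among the 10 highest. Lgals3 had ratios of 3.73 (2.78 to 5) in the old and 5.21 (4.09 to 6.7) in the young mice, and 3.62 and 3.47 without class II-high cells. Ccl8, a monocyte attractant, had 115, 21.4, 389 and 1.48 CPM, and its old ratio of 5.4 turned to 0.188 without class II-high cells. Apoe, the lipid carrier of the disease-associated list, had 9008, 4320, 29906 and 5144 CPM, and 5752, 3766, 11130 and 4108 CPM without class II-high cells.

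**Figure D5:**
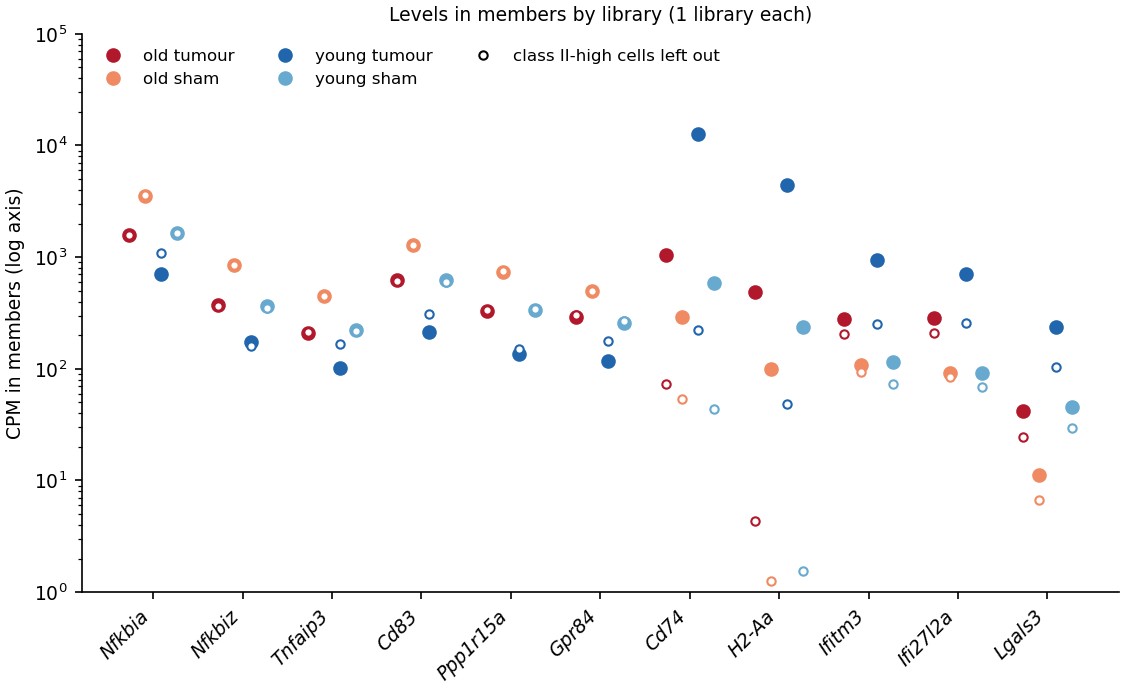
Level of selected genes in members (y axis, CPM on a log axis) by gene (x axis) and library, with all members (filled) and without class II-high cells (open). Nfkbia, Nfkbiz, Tnfaip3, Cd83, Ppp1r15a and Gpr84 are highest in old sham and lowest in young tumour, and Cd74 in young tumour is 12776 CPM with and 221 CPM without class II-high cells.

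The tumour ratio was ranked for its difference between the ages. Higher in the old than in the young contrast were, among others, Enpp2, Ttr, Hspa1b and Hist1h1c, and lower were Acp5, Ccl5, Ccl8, Cxcl9 and Ly6a. Enpp2 and Ttr are the choroid plexus genes named above. The 5 highest cells held 85.2%, 76.4%, 40% and 90.7% of member Enpp2 UMIs in old tumour, old sham, young tumour and young sham. For Ccl8 the 5 highest cells held 96.9%, 79.1%, 64.4% and 100%, with 3 UMIs in young sham. Ccl5, an attractant of T cells, had 6.41 CPM in old tumour members, 7.08 in old sham, 1076 in young tumour and 5.42 in young sham, but 324 CPM in young tumour without class II-high cells. Ly6a had 19.2, 17.6, 556 and 17.2 CPM, and 31.5 CPM in young tumour without class II-high cells. Ccl8 was also higher in old tumour than in old sham members, as given above. Whether these ratios differ between the ages was not tested.

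Some lists had few genes past the fold, as did all genes in the comparisons within sham and within old mice. Among all tested genes, 18.2% were lower in young tumour over young sham and 16.5% higher in old tumour over young tumour. Of 6 tested complement genes 0 were past 1.5-fold in old tumour over old sham and in old sham over young sham, and C1qa, a subunit of C1q, had 10389, 9205, 10155 and 10073 CPM in old tumour, old sham, young tumour and young sham. In young tumour over young sham 1 complement gene was lower and in old tumour over young tumour 1 was higher, and 0 in both without class II-high cells. Of 8 tested genes of TGF-beta signalling, which maintains microglia, 0 were past it in old tumour over old sham and old sham over young sham; 4 were lower in young tumour over young sham and 4 higher in old tumour over young tumour, and 0 of 9 in both without class II-high cells. Of 4 tested genes of TNF shedding, receptors and proximal signalling 0 were past it in any of the 4 comparisons. Of 6 tested genes of Toll-like receptors and adaptors 0 were past it in old tumour over old sham or old sham over young sham; 1 was higher and 1 lower in young tumour over young sham and 2 were higher in old tumour over young tumour. Tlr2, a receptor of bacterial lipoproteins, had 123, 123, 132 and 86.2 CPM. Il1rn, which encodes the antagonist of the IL-1 receptor, lay under the limit for comparison, with 3.2, 0.621, 21.2 and 0 CPM in members.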

How the data were processed

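The authors deposited 1 matrix per library of raw UMI counts (1 row per gene, 32285 genes, and 1 column per barcode). Libraries were made with a droplet 3′ kit, per the labels' protocols. The file headers name Cell Ranger 6.1.0, whereas the submitters' processing notes name Cell Ranger 3.0.2, Seurat 2.3.4 and mm10, and the difference was not resolved. The annotation release is not given in the sources used here. Strain labels that differ in their last digit between the samples were not used. Groups follow the age and treatment labels.

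Barcodes with at least 500 UMIs, 200 genes and at most 20% mitochondrial UMIs were kept. Doublet scores (Scrublet in scanpy 1.11.5, at 0.8% per 1000 barcodes) were used only in an alternative. No cell annotation was used, so cells were chosen by UMI sums, and the rebuilt classes may differ from the study's own. UMIs were summed over the cells of a class and divided by their total (CPM). Shares carry exact Clopper-Pearson intervals, ratios exact conditional Poisson intervals (scipy 1.17.1), and ratios used 3 counts wherever a gene had 0. Member totals were 2497315 UMIs in old tumour, 8054359 in old sham, 988485 in young tumour and 2031096 in young sham. With 1 library per group no model was fitted and no p-value computed, and a gene was called past the fold at 1.5 in either direction. The procedure was tested on simulated data.

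Genes needed a mean of at least 50 CPM. Genes of the rule, predicted genes, Xist and Y-linked, hemoglobin, mitochondrial and ribosomal protein genes were not ranked. Ranked were the 15 highest and 10 lowest in members over other microglia by the weakest of the 4 libraries, the 10 highest and 10 lowest by age and by tumour by the weaker of both contrasts, and the 5 highest and 5 lowest by the difference between the ages. Other genes are members of 23 gene lists, picked after their values were seen. A ranked gene is not reported here. Members and lists were chosen with earlier results of these data known. Clec7a and Mx1 were not analysed here. Promoter windows are RefSeq's and gene positions GENCODE's (release vM21).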

Additional observations from a re-analysis of the deposited data

Results flagged for a closer look

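In 3 genes the tumour ratio of members went opposite ways at the 2 ages with all members counted, with 1 library behind each value, and the difference was not tested. Cxcl9, an interferon-induced chemokine, had no UMI in old tumour members and 6.58 CPM in old sham members, against 384 CPM in young tumour and 5.42 CPM in young sham members. The old over young difference of its tumour ratios was -8.60 on the log2 scale, with 3 counts in place of 0 in old tumour, so the size of the difference is a lower bound. The old direction rests on 53 UMIs in 0.218% of old sham members. Without class II-high cells, Cxcl9 was at 0 CPM in old tumour and 0.634 CPM (5 UMIs) in old sham members. It was then at 5.73 CPM in young tumour and 0 CPM in young sham members. Its old log2 ratio became 1.04 only through the 3 counts in place of 0, so these counts give no direction in the old mice. Hspa1b, an inducible heat shock protein, had 38.8 CPM in old tumour and 23.1 CPM in old sham members, against 19.2 CPM in young tumour and 155 CPM in young sham members, a difference of 3.76. Hist1h1c, a linker histone, had 658 CPM in old tumour and 202 CPM in old sham members, against 370 CPM in young tumour and 703 CPM in young sham members, a difference of 2.63. Without class II-high cells, Hist1h1c had 596 CPM in young tumour and 716 CPM in young sham members.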

How the results depend on the processing

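All 36 alternative values of the share ratios kept their direction. Thinning to 2000 UMIs gave ratios of 0.226 for old tumour over old sham, 0.307 for young tumour over young sham, 7.84 for old sham over young sham and 5.77 for old tumour over young tumour, and thinning to 1000 UMIs, which left 14 young tumour members, gave 0.163, 0.278, 11.5 and 6.78 in the same order. A limit of 2 cytokine UMIs gave 0.378 for old tumour over old sham, 3.67 for old sham over young sham and 2.97 for old tumour over young tumour, and a limit of 5 gave 0.242, 8.33 and 4.32. The old tumour over young tumour ratio was 4.56 with at least 5 microglia UMIs and 6.47 without class II-high cells, which also gave 0.256 for young tumour over young sham. The numbers of genes past 1.5-fold moved more. In the order above, they were 1023, 1846, 1116 and 1729 with cells thinned to 1000 UMIs, 378, 1617, 434 and 1407 at a mean of at least 20 CPM, and 84, 435, 97 and 346 at 100 CPM, where the number of genes tested also changed. Thinning to 2000 UMIs gave 340 in old tumour over old sham and 418 in old sham over young sham. In old tumour over young tumour there were 333 with at least 2 cytokine UMIs, 396 by the mean of each cell's CPM and 235 without class II-high cells, and in young tumour over young sham 315 without them. Of 980 values of ranked genes, 24 changed direction. Among them, with cells thinned to 1000 UMIs, log2 ratios of young tumour over young sham became 0.058 for Nfkbiz, 0.54 for Nr4a1, 2.87 for Enpp2, 0.81 for Ttr, 0.47 for Tnfaip3 and 0.70 for Ifrd1. Those of old tumour over young tumour became -0.0064 for Nr4a1, -1.42 for Nfkbid and Upk1b and -1.01 for Csf1. Those of old tumour over old sham became 4.16 for Cxcl9, -0.64 for H2-Ab1 and -1.18 for Cd74. At that depth, with 3 counts wherever a gene had 0, all genes had a median log2 ratio of 0.56 in young tumour over young sham. Their median was -0.50 in old tumour over young tumour. With 2000 UMIs, old tumour over young tumour was -0.12 for Csf1 and -0.0033 for Gpr84, and old tumour over old sham 3.76 for Cxcl9. Without class II-high cells, old tumour over old sham became 1.04 for Cxcl9, -0.81 for H2-Eb1 and -2.41 for Ccl8. In the same setting old tumour over young tumour became -0.035 for Csf1. Old sham over young sham became 0.82 for H2-Ab1, 1.57 for H2-Eb1 and 0.29 for Cd74. Each of these Cxcl9 values rests on the 3 counts put in place of 0 UMIs in old tumour members, so none is a measured rise. Of 840 list medians, 4 changed direction: MHC class II without class II-high cells, at 0.037 in old sham over young sham and 0.065 in old tumour over young tumour, and TGF-beta signalling with 1000 UMIs, at 0.70 in young tumour over young sham and -0.60 in old tumour over young tumour. Causes were not tested beyond what each alternative is built to change. No paired analysis was possible because each group holds 1 library. The 143 young tumour members and their 988485 UMIs set the precision of every comparison with that library.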
